A study of Homo sapiens with 2 samples.

Results

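The ATP-binding cassette (ABC) genes were examined in the RNA-seq read counts of Ramos cells and of the rituximab-resistant Ramos640 cells. All rows of the count table whose symbol begins with ABC, a subfamily letter from A to G and a digit were taken, with no use of their values, which gave 58 rows of 37122. Of these, 45 were transporter family genes and 13 were pseudogene or antisense rows. The symbol rule leaves out family members with other names, of which TAP1, TAP2 and CFTR are given at the end.

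Ramos is a human Burkitt's lymphoma line, a B cell tumour. Ramos640 was derived from Ramos by growth in rising amounts of rituximab, an antibody against CD20 that kills cells with the help of complement, in the presence of normal human serum. The labels give 640 mg/mL rituximab and 20% serum every 21 days as its upkeep, while the study's methods give the rituximab in micrograms rather than milligrams per mL. Both lines shared the same serum-supplemented RPMI medium, and Ramos is the untreated parent. Whether Ramos640 is 1 clone, and how long after the last dose RNA was taken, is not given in the sources used here. Each line has 1 library, made from RNA pooled over 3 passages, so every difference lacks a replicate check, no test between the lines was possible, and intervals cover counting error only. Resistance, selection, serum exposure and time in culture cannot be told apart in these 2 libraries.

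ABC proteins bind and hydrolyse ATP, and most of them use it to carry a substrate across a membrane. Members of subfamilies A and G mainly move sterols and phospholipids, several members of B, C and G export drugs and conjugates, other B members sit in mitochondria or lysosomes, and D members feed fatty acids into peroxisomes or release cobalamin from lysosomes. E and F members have the ATP-binding domains but no membrane domain and act on ribosomes. In B cells and lymphomas the family is best known for drug efflux by ABCB1 (P-glycoprotein), ABCC1 and ABCG2, and for cholesterol efflux by ABCA1 and ABCG1.

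The ABC rows differ in the DNA before their starts, and 6 stretches show the contrasts to which the results return. Each is the 120 bases before an annotated start (RefSeq, GRCh38.p14, 5′ to 3′ on the gene's strand), and capitals mark CG dinucleotides. The first 4 are neighbours on chromosome 17 of which ABCA5 and ABCA6 were read and ABCA9 and ABCA10 were not. ABCA1 is the cholesterol exporter that was lower in Ramos640, and ABCF1 had the highest level per kb in both libraries.
ABCA5, chr17:69327134-69327253, minus strand: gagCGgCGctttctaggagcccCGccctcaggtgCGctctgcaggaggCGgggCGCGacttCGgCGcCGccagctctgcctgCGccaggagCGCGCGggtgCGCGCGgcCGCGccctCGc
ABCA6, chr17:69141896-69142015, minus strand: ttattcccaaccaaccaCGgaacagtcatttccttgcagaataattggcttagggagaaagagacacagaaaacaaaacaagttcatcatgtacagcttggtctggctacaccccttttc
ABCA9, chr17:69060928-69061047, minus strand: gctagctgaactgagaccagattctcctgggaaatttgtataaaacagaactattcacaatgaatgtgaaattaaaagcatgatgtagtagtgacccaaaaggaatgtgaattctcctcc
ABCA10, chr17:69244849-69244968, minus strand: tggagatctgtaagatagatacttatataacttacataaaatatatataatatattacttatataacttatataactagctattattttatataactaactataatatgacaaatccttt
ABCA1, chr9:104928156-104928275, minus strand: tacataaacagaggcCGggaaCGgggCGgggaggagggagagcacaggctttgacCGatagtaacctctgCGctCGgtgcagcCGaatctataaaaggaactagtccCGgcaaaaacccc
ABCF1, chr6:30571322-30571441, plus strand: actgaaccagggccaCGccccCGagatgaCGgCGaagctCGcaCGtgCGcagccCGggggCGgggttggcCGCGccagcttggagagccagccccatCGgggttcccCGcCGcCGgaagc
The ABCA5 stretch holds 20 CG dinucleotides, that of ABCF1 holds 15 and that of ABCA1 holds 8. The ABCA6 stretch holds 1, and those of ABCA9 and ABCA10 hold 0.

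The libraries held 38030090 reads for Ramos and 30871826 for Ramos640. The ABC rows took 33946 reads in Ramos and 28779 in Ramos640, which is 893 reads per 1000000 library reads (CPM; 95% Clopper-Pearson interval 883 to 902) and 932 (921 to 943). Of the 58 rows, 18 had no read in either library, 9 had 1 to 9 reads in the libraries together with at most 6 reads in one row, and 31 had at least 10 and were compared. The share of rows with no reads was 31% for ABC and 34.7% for the whole table. Each difference is a log2 fold change, Ramos640 over Ramos, of median-of-ratios normalised counts plus 1. A row was called when the fold passed 1.5 in either direction (0.58 or -0.58 on the log2 scale) and the 95% interval excluded no difference.

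By this rule 4 ABC rows were called higher in Ramos640 and 8 lower, which is 12.9% and 25.8% of the 31 rows compared. Over all 18778 rows compared, 11.4% were called higher and 13.7% lower. The median log2 fold change was -0.006 for the 31 ABC rows, as against -0.015 for all rows, and 15 ABC rows lay above 0 and 16 below. The split depended on the scale. It was 2 higher and 8 lower with total counts, where 9.38% of all rows were called higher and 16.5% lower. After the trend with GC content over all genes was removed it was 2 higher and 5 lower. There 9.46% of all rows with a GC content were called higher and 12.5% lower. The rows called lower were ABCA1, ABCA3, ABCA5, ABCA6, ABCB4, ABCC2, ABCD3 and the pseudogene ABCA17P. The rows called higher were ABCG1, ABCC10, ABCD2 and ABCB9.

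**Figure D1:**
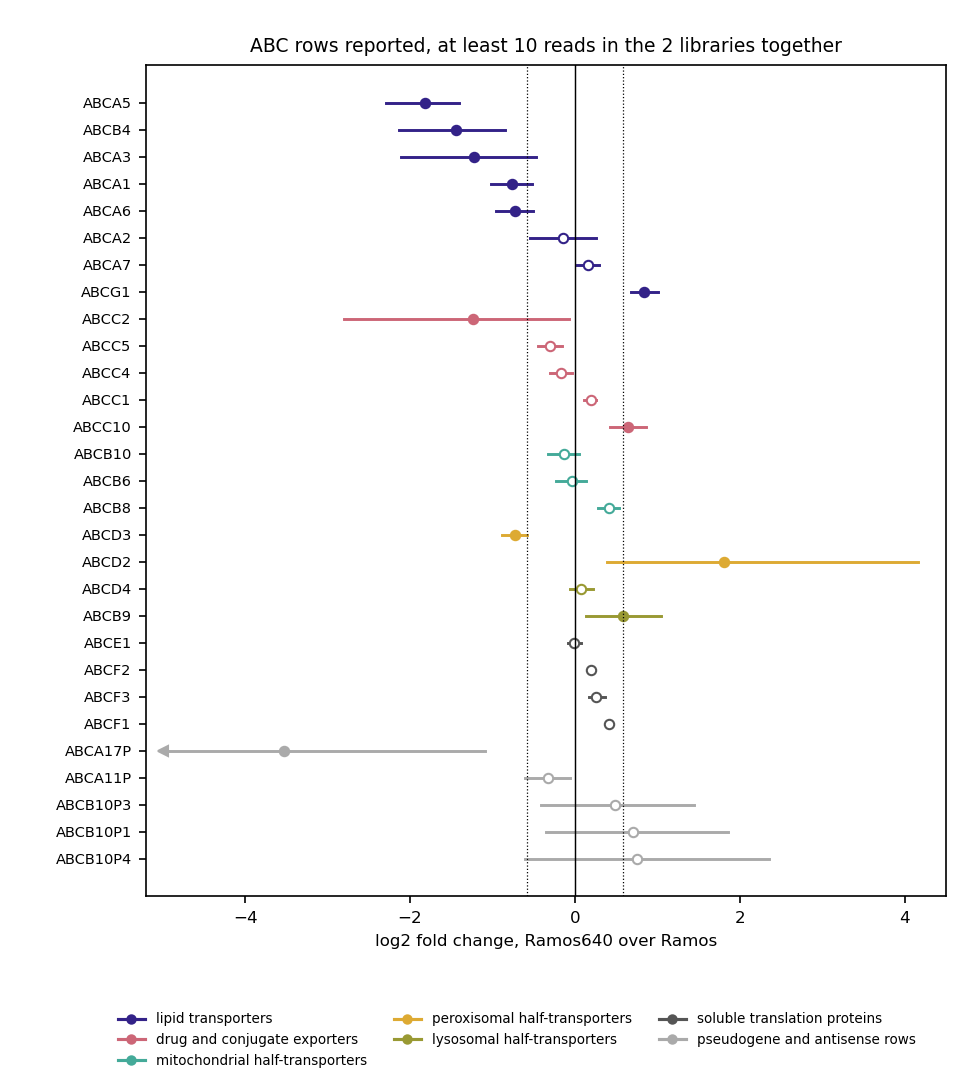
Log2 fold change (x axis, Ramos640 over Ramos, counts plus 1) of the 29 ABC rows reported that had at least 10 reads, coloured by role, with 95% counting intervals as bars. Filled points were called, open points were not, dotted lines mark the log2 fold limits of -0.58 and 0.58, and an arrow marks an interval without a lower end; 5 of the 8 lipid transporters lie left of the lower limit and ABCG1 lies right of the upper one.

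The ABC reads were unevenly divided between the roles. The 4 soluble ribosome-associated proteins took 57.6% (95% interval 57.1 to 58.1) of the ABC reads in Ramos and 61.9% (61.4 to 62.5) in Ramos640. Drug and conjugate exporters took 16.5% and 15.8%, mitochondrial half-transporters 9.29% and 8.73%, and lipid transporters 8.9% (8.6 to 9.21) and 7.7% (7.39 to 8.01). Peroxisomal half-transporters took 3.69% (3.49 to 3.9) and 2.17% (2.01 to 2.35), and lysosomal ones 2.91% and 2.88%. By subfamily, the share of ABCA rows was 7.98% (7.7 to 8.28) in Ramos and 5.74% (5.47 to 6.01) in Ramos640. The share of ABCF rows was 46.9% (46.4 to 47.5) and 52.3% (51.7 to 52.9).

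Levels can be compared between genes only per length, and are given as RPKM, CPM divided by the transcript length in kb. The order from the top in Ramos was ABCF1 at 51.5 RPKM, ABCF2 at 42.7, ABCE1 at 24.5, ABCF3 at 20.5 and ABCC1 at 12.9. In Ramos640 the same genes stood at 65, 46.2, 23.1, 23.2 and 13.8 RPKM. ABCE1 and ABCF3, neighbours in this order, changed places by less than their counting error in Ramos640. Among the membrane transporters ABCC1 was followed in Ramos by ABCD3 at 8.68 RPKM and ABCD4 at 7.91. In Ramos640 it was followed by ABCD4 at 7.92 RPKM, ABCG1 at 7.82 and ABCB8 at 6.84. With 1 library per line, the spread of these levels between cultures is unknown.

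**Figure D2:**
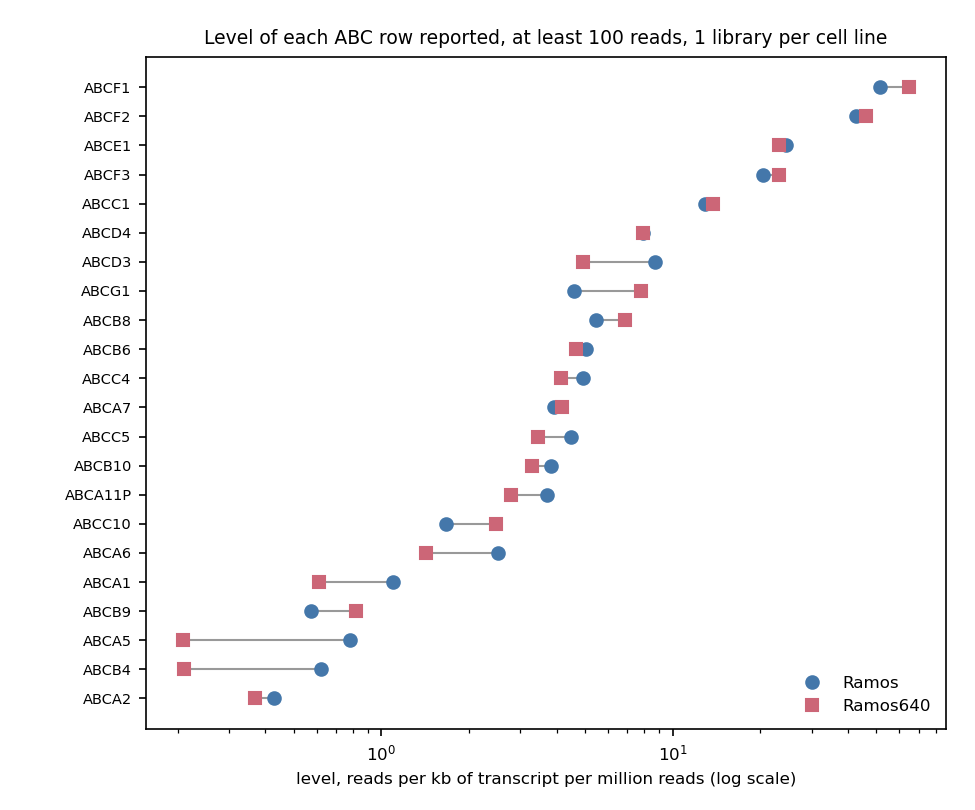
Level of each of the 22 ABC rows reported that had at least 100 reads (x axis, RPKM, log scale) in Ramos (circles) and Ramos640 (squares), 1 library each, joined by a line per row. ABCF1 and ABCF2 lie farthest right in both libraries, and the longest lines are those of ABCA5, with 0.784 and 0.208 RPKM, and ABCB4, with 0.619 and 0.211.

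Lipid transporters held most of the rows called lower. Of their 17 rows, 8 had at least 10 reads, of which 5 were lower and 1 higher, with a median log2 fold change of -0.75. Over all rows compared, 13.7% were called lower and 11.4% higher, and these shares also stand beside the counts of the other roles below. After removal of the GC trend the median of the lipid transporters was -0.59, and ABCA6 was no longer called. ABCA5, a lipid transporter of late endosomes and lysosomes, had 246 reads in Ramos and 53 in Ramos640, 0.784 and 0.208 RPKM. Its log2 fold change was -1.82 (95% interval -2.29 to -1.40), the lowest of any ABC gene compared apart from pseudogenes. ABCB4, which brings phosphatidylcholine to the outer side of the membrane and is best known from bile formation, had 101 and 28 reads. It fell by 1.44 on the log2 scale (-2.13 to -0.85). ABCA3, which loads lipids into the lamellar bodies of lung cells, had 56 and 18 reads and a log2 fold change of -1.22 (-2.11 to -0.47).

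ABCA1 passes cholesterol and phospholipid to lipid-poor apolipoprotein A-I, the first step of high-density lipoprotein formation. Its reads numbered 434 in Ramos against 196 in Ramos640, and its level was 1.1 and 0.61 RPKM. The log2 fold change was -0.76 (-1.02 to -0.52). ABCG1 passes cholesterol on to formed high-density lipoprotein and is switched on by the same sterol-sensing receptors as ABCA1. Its counts were 521 and 718, 4.6 and 7.82 RPKM, and a log2 fold change of 0.84 (0.68 to 1.01). The pair therefore moved in opposite directions: the ratio of ABCG1 to ABCA1 reads was 1.2 in Ramos and 3.66 in Ramos640, a ratio of ratios of 3.05 (exact 95% interval 2.48 to 3.76) that does not depend on scaling.

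ABCA6, a member of the chromosome 17 group whose substrate is less well defined, had 507 and 234 reads. Its log2 fold change of -0.73 (-0.96 to -0.51) was called lower, but it was -0.44 and no longer called once the GC trend was removed. ABCA7, which moves phospholipid and takes part in phagocytosis, had 1019 and 876 reads, the most of any ABCA row. Its log2 fold change was 0.16 (0.03 to 0.29), within the fold limits. ABCA2, an endolysosomal sterol transporter of myelinating cells, had 132 and 92 reads and a log2 fold change of -0.14 (-0.54 to 0.26). The ratio of ABCA7 to ABCA1 reads was 2.35 in Ramos and 4.47 in Ramos640. ABCA12, which loads skin barrier lipids, had 6 reads in Ramos and 0 in Ramos640. The retinal transporter ABCA4, together with ABCA8, ABCA9, ABCA10, ABCA13, ABCG4 and the sterol pair ABCG5 and ABCG8, had no read in either library.

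Transcripts listed here as fibroblast markers moved in the same direction as the transporters called lower. All 4 fibroblast genes listed (COL1A1, COL1A2, COL3A1 and DCN) were lower in Ramos640, summing to 34.1 CPM in Ramos and 12.8 in Ramos640, and none was at 0 in either library. COL1A1 had 651 and 192 reads and DCN had 13 and 1. Their part in the lower lipid transporter counts was not tested. Whether these transcripts came from the line's own cells was not tested. In bulk RNA, fewer cells of a type and less RNA per cell cannot be told apart.

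The ABC exporters of drugs and conjugates were led by ABCC1, and the classical multidrug exporters were nearly unread. ABCB1 had 0 reads in Ramos and 3 in Ramos640, and ABCG2 had 0 in both. A count of 0 allows up to 3 reads, or 0.0789 CPM in Ramos and 0.0972 in Ramos640. Of the 11 rows in this role, 5 had at least 10 reads, with 1 called higher, 1 lower and a median log2 fold change of -0.17. ABCC1 (MRP1), an exporter of glutathione conjugates and anthracyclines, had 3182 and 2779 reads and a log2 fold change of 0.19 (0.11 to 0.26), within the fold limits. ABCC4 and ABCC5, exporters of cyclic nucleotides and their analogues, had 1097 and 750 reads, and 989 and 617 reads. Their log2 fold changes were -0.17 (-0.30 to -0.03) and -0.30 (-0.45 to -0.15), both inside the limits. Relative to ABCC1 both were lower in Ramos640. The read ratio of ABCC1 to ABCC4 went from 2.9 to 3.71, a ratio of ratios of 1.28 (1.15 to 1.42). That of ABCC1 to ABCC5 went from 3.22 to 4.5, a ratio of ratios of 1.4 (1.25 to 1.57). After removal of the GC trend ABCC1 was at 0.05 and ABCC4 at -0.03, so little of their contrast was left, while ABCC5 was at -0.37.

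ABCC10 (MRP7), an exporter of taxanes and vinca alkaloids, was the row of this role called higher, with 320 and 384 reads. Its log2 fold change was 0.64 (0.43 to 0.86). The call was lost with total counts, at 0.56, and after removal of the GC trend, at 0.38. ABCC2 (MRP2), the conjugate exporter of the bile canaliculus, was called lower on 23 and 7 reads, with a log2 fold change of -1.23 (-2.80 to -0.07). After removal of the GC trend it was -1.16 and no longer called. ABCC3 had 0 and 1 reads, ABCC11 had 1 and 0, and ABCB5 and ABCC12 had none.

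Among the remaining full transporters outside these roles, ABCC6, which is mutated in the mineralisation disease pseudoxanthoma elasticum, had 3 and 1 reads, and the bile salt exporter ABCB11 had none. The sulfonylurea receptors, which regulate potassium channels rather than carry a substrate, were at 1 and 0 reads for ABCC8 and at 0 in both libraries for ABCC9.

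All 4 mitochondrial half-transporters were read in both lines and none was called. ABCB8, part of a mitochondrial potassium channel complex, had 963 and 983 reads and a log2 fold change of 0.41 (0.28 to 0.54), which was 0.16 after removal of the GC trend. ABCB10, needed for heme synthesis, had 563 and 394 reads and a value of -0.13 (-0.32 to 0.05). ABCB6, linked to porphyrin transport, had 574 and 428 reads and a value of -0.04 (-0.23 to 0.14).

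Of the 3 peroxisomal members, 1 was called lower and 1 higher. ABCD3 (PMP70), which brings branched-chain fatty acids and bile acid precursors into peroxisomes, had 1189 reads in Ramos and 550 in Ramos640, 8.68 and 4.94 RPKM. It was called lower, with a log2 fold change of -0.73 (-0.88 to -0.58), and it lay at -0.44, outside the call, after removal of the GC trend. ABCD2, an importer of very-long-chain and polyunsaturated fatty acids, was called higher on 4 and 13 reads, with a log2 fold change of 1.81 (0.39 to 4.16). ABCD3 had the highest level per kb of the 3 in both libraries.

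Of the lysosomal members, ABCD4, needed to release cobalamin (vitamin B12), had 913 and 742 reads and a log2 fold change of 0.08 (-0.06 to 0.22). ABCB9, a peptide transporter related to TAP, had 76 and 88 reads and a value of 0.59 (0.13 to 1.05). That value lies at the fold limit of 0.58 on the log2 scale. The call was lost with TMM scaling (0.58), total counts (0.51), a pseudocount of 10 (0.53) and removal of the GC trend (0.39). Exons of ABCB9 also overlap ARL6IP4 (6667 and 5336 reads) and OGFOD2 (866 and 949) on the other strand. Whether reads were counted by strand is not given in the sources used here, so reads of these genes cannot be told apart.

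None of the soluble members was called, although ABCF1, ABCF2 and ABCE1 had the most reads of all ABC rows. ABCE1, which splits ribosomes after termination, had 3628 and 2774 reads and a log2 fold change of -0.01 (-0.08 to 0.07). ABCF1, which acts in translation initiation, had 6669 and 6831 reads and a value of 0.42 (0.37 to 0.46). ABCF2 had 7356 and 6461 reads and a value of 0.19 (0.15 to 0.24). ABCF3 had 1904 and 1753 reads and a value of 0.26 (0.17 to 0.36). All 3 ABCF intervals lie above 0, with folds under 1.5. With the GC trend removed, ABCF2 was at 0.12 and ABCF3 at 0.07, each below the interval given above, which belongs to the value before the removal. The ratio of ABCF1 to ABCE1 reads was 1.84 in Ramos and 2.46 in Ramos640, a ratio of ratios of 1.34 (1.26 to 1.42). After removal of the GC trend this order turned, with 0.36 for ABCE1 and 0.27 for ABCF1. ABCE1 shares exon sequence with ANAPC10 and OTUD4 on the other strand.

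The 13 pseudogene and antisense rows took 1.05% of ABC reads in Ramos and 0.82% in Ramos640. ABCA11P had 298 and 182 reads and a log2 fold change of -0.33 (-0.60 to -0.06), and its exons overlap those of ZNF721 on the same strand. ABCA17P had 12 reads in Ramos and 0 in Ramos640, at least 3.07-fold lower at a floor of 3 reads in the Ramos640 library, with the 12 reads taken as exact. The 95% counting interval, which also covers the error of those reads, ends at 2.13-fold lower. It lies across the start of ABCA3 on the other strand. The ABCB10 pseudogenes ABCB10P1, ABCB10P3 and ABCB10P4 had between 8 and 23 reads per library, with values of 0.70, 0.49 and 0.76 and intervals that include 0. Reads of such near-identical copies and of ABCB10 are uncertain between them. ABCC5-AS1 (0 and 2 reads) and ABCC6P1 (1 and 0) were almost unread, and ABCC6P2 and ABCC13 had no read.

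On the GRCh37 annotation the called genes lie on 9 chromosomes. ABCA1 is at chr9:107543287-107690436, ABCA3 at chr16:2325882-2390747, ABCB4 at chr7:87031012-87109751 and ABCD2 at chr12:39943835-40013605, all on the minus strand. ABCB9 is at chr12:123405498-123466196 on the minus strand. ABCG1 is at chr21:43619799-43717354, ABCC10 at chr6:43395104-43418165, ABCC2 at chr10:101542397-101612351 and ABCD3 at chr1:94883945-94984222, all on the plus strand. ABCA6 (chr17:67074843-67138036) and ABCA5 (chr17:67240452-67323385) share a cluster on the minus strand. The rows count whole genes, so exons and introns within them were not separated here.

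The cluster on chromosome 17 holds 5 ABCA genes in a row, ABCA8, ABCA9, ABCA6, ABCA10 and ABCA5. ABCA6 and ABCA5 were read and lower in Ramos640, and the 3 others were at 0 reads in both libraries. ABCA5 fell further than ABCA6: the ratio of ABCA6 to ABCA5 reads was 2.06 in Ramos and 4.42 in Ramos640, a ratio of ratios of 2.14 (1.52 to 3.05). The read genes on either side were not called. On the ABCA8 side, PRKAR1A (4134 and 2753 reads) had a log2 fold change of -0.21, WIPI1 (774 and 752) 0.34, ARSG (682 and 583) 0.15, SLC16A6 (182 and 162) 0.21 and AMZ2 (4867 and 3162) -0.24. On the ABCA5 side, MAP2K6 had 133 and 93 reads and a value of -0.13 (-0.53 to 0.26). FAM20A had 1 and 3 reads. Exons of ABCA10 and ABCA5 overlap on the same strand.

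**Figure D3:**
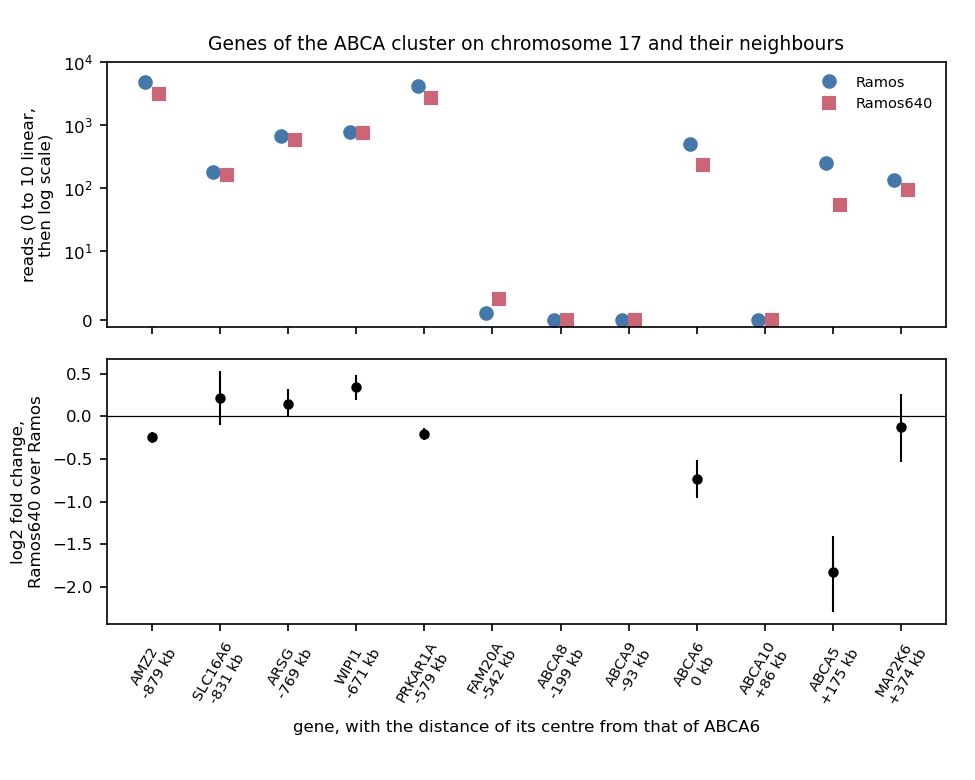
Genes of the ABCA cluster and their neighbours on chromosome 17 in map order (x axis, distance of each gene's centre from that of ABCA6 in kb, not to scale), with the reads of Ramos (circles) and Ramos640 (squares) above (0 to 10 linear, then log scale) and the log2 fold change with its 95% counting interval as a bar, for rows with at least 10 reads, in the lower panel. ABCA8, ABCA9 and ABCA10 sit at 0 reads, and ABCA6 and ABCA5 lie at -0.73 and -1.82 while the other genes with a value lie between -0.24 and 0.34.

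Around the other called lipid genes the neighbours were taken as the 4 nearest protein-coding genes with at least 100 reads on each side. Around ABCB4 all 8 neighbours lay below 0, from -0.75 to -0.10 with a median of -0.44. Around ABCA3 the median was 0.36 (-0.16 to 0.63), against -1.22 for the gene. Around ABCA1 it was -0.14 (-0.87 to 0.24), around ABCG1 -0.15 (-0.65 to 0.46) and around ABCD3 -0.29 (-0.90 to 0.53).

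The differences followed the GC content of the transcripts, in the ABC rows as in all genes. Spearman's rho between GC content and log2 fold change was 0.722 over the 24 ABC rows with at least 100 reads and 0.463 over all 31 compared. Over 10246 protein-coding rows with at least 100 reads it was 0.432. These are correlations across genes of the same 2 libraries, and genes are not independent replicates. Of the 8 rows called lower, 7 had a GC content under 50%, with a median of 44.6% (33.2 to 60.4). The 4 called higher had a median of 57.7% (34.4 to 61.9), and the 19 not called a median of 54.9%. With the trend over all genes removed, ABCA5 stood at -1.42, ABCB4 at -1.33, ABCA3 at -1.49, ABCA1 at -0.74 and ABCG1 at 0.71, all still called. The calls of ABCA6, ABCD3, ABCC2, ABCC10 and ABCB9 were lost. Whether library preparation had a part in the trend was not tested.

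**Figure D4:**
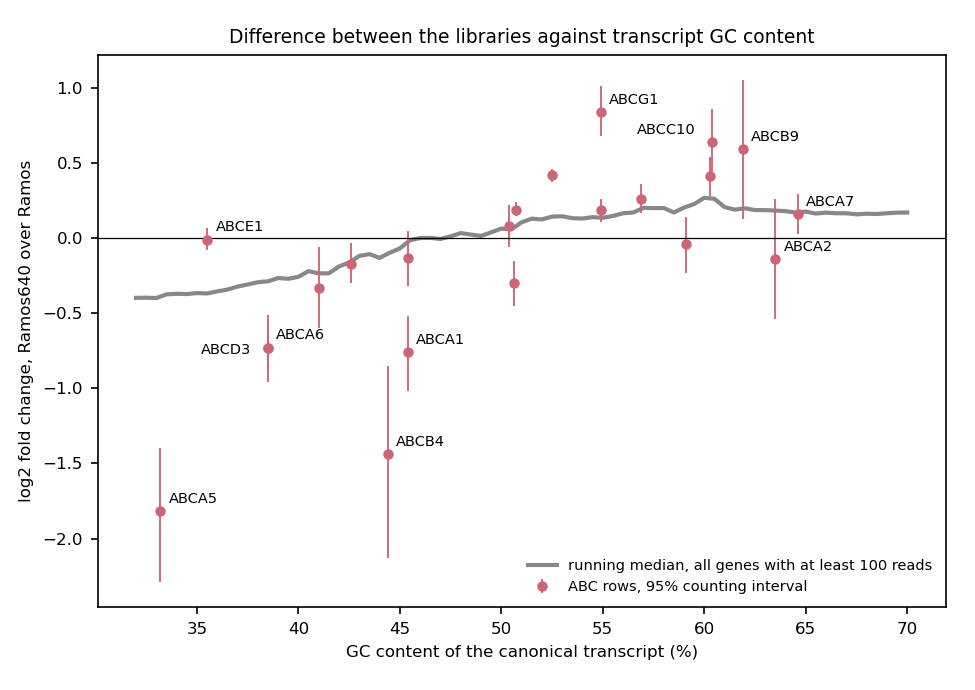
Log2 fold change (y axis, Ramos640 over Ramos) against GC content of the canonical transcript (x axis, percent) for the 22 ABC rows reported that had at least 100 reads, with 95% counting intervals as bars, and the running median over all genes with at least 100 reads as a grey line. Low-GC rows such as ABCA5 and ABCD3 lie under 0 and high-GC rows such as ABCC10 and ABCB9 above it. Rows clear of the grey line include ABCA5, ABCB4, ABCA1 and ABCG1, and also ABCE1 and ABCF1, which were not called.

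The well-read ABC genes mostly had CG-rich promoters. RefSeq windows of 300 bases (250 before and 50 after the start) were found for 36 of the 58 rows, and the start with the most CG dinucleotides was used where a gene had several. The 18 genes with at least 100 reads had a median of 29 CG dinucleotides (2 to 66), and 17 of them had at least 15. The 15 genes with fewer than 10 reads had a median of 9 (1 to 35), and 6 of them had at least 15. Among all 27305 genes with a window the median was 16 and 52% had at least 15. That set takes genes whatever their reads, and well-read genes outside the family were not counted apart. Whether well-read ABC genes differ from other well-read genes was therefore not tested. ABCA6 was the exception among the well-read genes, with 2 CG dinucleotides and 741 reads in the 2 libraries together, and its stretch printed above shows it. In the other direction, ABCG2 with 35 and ABCG4 with 28 had no reads. The windows of 22 rows, 6 with at least 100 reads (ABCG1, ABCC1, ABCB4 and ABCA11P among them), were not used here.

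By direction of the difference, the 6 genes called lower that had a window had a median of 32.5, the 3 called higher a median of 20, and the 12 not called a median of 29. The motif GGGCGG (GC box, either strand) occurred in 15 of the 18 windows of genes with at least 100 reads (83.3%). It occurred in 3 of the 15 with fewer than 10 reads (20%) and in 47% of all genes' windows, whatever their reads. CACGTG (E-box) occurred in 6 of the 36 ABC windows (16.7%) and in 7.54% of all. CCAAT occurred in 9 (25%) and in 35% of all, and TATAAA in 6 (16.7%) and in 11.5% of all. These are matches of letters and do not show binding; GGGCGG holds a CG and so overlaps the CG count.

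**Figure D5:**
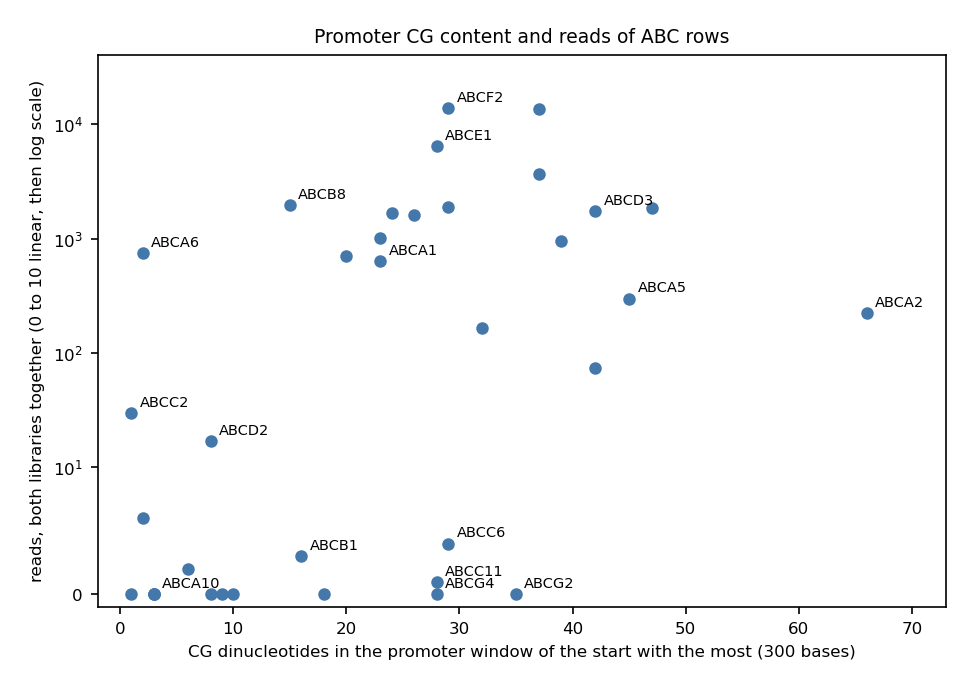
Reads in both libraries together (y axis, 0 to 10 linear, then log scale) against the number of CG dinucleotides in the promoter window of 300 bases with the most of them (x axis) for the 36 ABC rows with a window. Genes with at least 100 reads lie at 15 or more apart from ABCA6 at 2, and ABCG2 at 35 and ABCG4 at 28 lie at 0 reads.

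Genes known to control ABC expression were compared as a list. Over all 18778 rows compared, 11.4% were called higher and 13.7% lower. Of 10246 protein-coding rows with at least 100 reads, 727 were called higher and 1298 lower. Of 19 sterol and xenobiotic regulators, 16 had at least 10 reads, of which 2 were higher and none lower, with a median log2 fold change of 0.12, which was -0.004 after removal of the GC trend. The oxysterol receptor NR1H3 (LXR alpha), an activator of ABCA1 and ABCG1, was called higher on 43 and 52 reads at 0.64 (0.04 to 1.27), and its ubiquitous relative NR1H2 (1041 and 900 reads) lay at 0.17. NR1I3, a xenobiotic receptor, was called higher on 150 and 176 reads at 0.61 (0.29 to 0.94). Both calls were lost with total counts, at 0.56 for NR1H3 and 0.53 for NR1I3, and after removal of the GC trend, at 0.48 and 0.47. Among those with the most reads, YBX1 (45016 and 47786 reads) lay at 0.47, SREBF2 (20945 and 15230) at -0.08 and KEAP1 (2791 and 2397) at 0.16. The extremes were RXRA, at 0.73 on 9 and 12 reads, and HIF1A, at -0.57 on 2164 and 1121 reads, neither called. HIF1A was called lower with total counts, at -0.65.

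Genes that handle the same substrates, and the lists after them, stand beside the same shares of 11.4% higher and 13.7% lower over all rows. None of 12 cholesterol and phospholipid handling genes with at least 10 reads was called, with a median of 0.07, including the lipoprotein receptor SCARB1 (4489 and 3374 reads) at -0.03, OSBP (3554 and 2650) at -0.04 and NPC2 (1836 and 1631) at 0.21. The range ran from STARD4 at -0.46 to STARD3 at 0.28. Of 13 glutathione and conjugation genes, GGT7 (164 and 273 reads, 1.11) was higher and GCLM (749 and 317 reads, -0.86), the modifier subunit of the first enzyme of glutathione synthesis, was lower, though GCLM was at -0.54 and not called after removal of the GC trend. GSTP1 (23919 and 20301 reads) lay at 0.14, GSTO1 (4624 and 3022) at -0.23 and GSS (3570 and 3547) at 0.37.

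Of 19 heme and iron-sulfur cluster genes, 1 was called: FECH, which inserts iron into heme, had 1012 reads in Ramos and 193 in Ramos640 and a log2 fold change of -2.0. The highest value was that of UROD at 0.54, with GLRX5 (6484 and 5465 reads) at 0.13, ISCU (5647 and 5830) at 0.43 and SLC25A39 (3334 and 3649) at 0.51. Of 18 peroxisomal genes, 1 was called, the import receptor PEX7 (122 and 60 reads) at -0.64. PEX19, which delivers ABCD proteins to the peroxisome, had 2574 and 2113 reads and lay at 0.10. SCP2 (2683 and 1836 reads) lay at -0.17, PEX5 (2313 and 1830) at 0.04 and ACOX3 at 0.55.

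None of 9 cobalamin genes was called, with MMADHC (5336 and 3720 reads) at -0.14, MTRR at 0.04, MTR at 0.03, MMACHC at 0.39 and LMBRD1, the partner of ABCD4, at -0.42. Of 13 translation genes, GCN1L1 (15198 and 18531 reads) at 0.67 and the kinase EIF2AK4 (GCN2; 787 and 1078 reads) at 0.83 were higher, and none was lower. GCN1L1 and EIF2AK4 sense uncharged tRNA together. After removal of the GC trend GCN1L1 was at 0.48 and not called. ATF4 (62696 and 52415 reads) lay at 0.12, EIF5 (9295 and 6966) at -0.04 and EIF2S3, with the lowest value of the list, at -0.32.

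The ABC family members with other names included both subunits of TAP, which were well read in both lines. TAP1, a subunit of the peptide transporter of antigen presentation, had 3357 and 3332 reads, 32.9 and 40.2 RPKM, and a log2 fold change of 0.37 (0.30 to 0.44). TAP2, the other subunit, had 8053 and 7589 reads, 37.5 and 43.6 RPKM, and a value of 0.30 (0.25 to 0.34). Neither was called, and both stood above every membrane transporter of the 58 rows in level per kb. The chloride channel CFTR had no read.

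The B cell label was checked against its markers. All 8 B cell genes listed were read, 2 of them called higher and 2 lower, with CD79B at 69495 and 82890 reads. The higher calls, CD74 and CD79B, were lost with total counts and after removal of the GC trend, at 0.43 and 0.38. The lower calls were PAX5 and MS4A1. PAX5 had 4624 and 2039 reads and a log2 fold change of -0.8 (-0.88 to -0.72). MS4A1, which encodes CD20, was read 9654 times in Ramos against 1904 times in Ramos640, at a log2 fold change of -1.96. T or NK, monocyte, epithelial and hepatocyte genes each summed, by list, to at most 1.13 CPM in either library, with 4 of 7 T or NK genes at 0. Among them CD3E was called higher on 1 and 31 reads and KRT8 lower on 18 and 3 reads.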

How the data were processed

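Gene expression was measured by RNA-seq in Ramos and Ramos640 cells, with 1 library each of RNA pooled over 3 passages. The authors removed adaptors from the Ion Proton reads, aligned them to GRCh37 with MapSplice and deposited raw read counts per gene without normalization. The counting program, annotation and use of strand are not given in the sources used here. Counts were scaled by median-of-ratios size factors (1.14 and 0.876; Python 3.11.15), since the study used DEseq. Log2 fold changes used a pseudocount of 1 and a minimum of 10 reads summed over both libraries. Exact Clopper-Pearson intervals (95%) cover counting error only. With 1 library per line, no dispersion can be estimated, and no count test from edgeR or DESeq2 was run; edgeR 4.0.16 gave TMM factors as an alternative.

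Length, GC content and position came from the canonical transcript of GENCODE v44lift37, matched for all 58 ABC rows. The GC trend was the median in a sliding window of 501 genes that had 100 or more reads. ABC rows with at least 100 reads, and called rows with fewer, were named, except for some genes that are not reported here, and from each related list the 3 with the most reads and both extremes. NR1H3, NR1I3 and NR1H2 were named after their values were seen. The members and lists were chosen with earlier results of these data known. Of 15 translation symbols, 14 had a row. The steps were tested on simulated data. The simulated counts held counting error only, so they do not bear on spread between cultures. Changes were planted past the 1.5-fold limit in rows with at least 100 reads, so calls near the limit or on fewer reads were not tested.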

Additional observations from a re-analysis of the deposited data

How the results depend on the processing

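The number of ABC rows called higher in Ramos640 was 4, and it was 2 with total counts, 2 after removal of the GC trend, 1 when the fold limit was 2 and 1 when the whole interval had to lie past the 1.5-fold limit. The number called lower was 8, and it was 5 with a minimum of 100 reads, 5 after removal of the GC trend, 5 at a fold limit of 2 and 3 when the whole interval had to pass. Over all rows the shares called higher and lower were 9.38% and 16.5% with total counts, and 9.46% and 12.5% after removal of the GC trend. With a minimum of 100 reads, which left 24 ABC rows, they were 9.94% and 12.6%. At a fold limit of 2 they were 5.76% and 7.4%, and when the whole interval had to pass 5.79% and 7.39%. Under TMM scaling the ABC counts were 3 and 8, beside shares of 11.1% and 14% over all rows. With a pseudocount of 10 they were also 3 and 8, beside 10.8% and 13.1%. They were 4 and 8 with a pseudocount of 0.1, beside 11.4% and 13.8%, and with a minimum of 1 read, beside 9.46% and 11.1%. The median log2 fold change of the ABC rows lay between -0.09 and 0.01 under all alternatives. Total counts moved the median of all rows by -0.08. No called ABC row changed sign under another scaling, pseudocount or read minimum, or without the GC trend, but calls were lost: ABCB9 under TMM and a pseudocount of 10, ABCB9 and ABCC10 with total counts, and those 2 with ABCA6, ABCC2 and ABCD3 after removal of the GC trend. A minimum of 100 reads left out ABCA3, ABCC2, ABCD2 and ABCA17P. A fold limit of 2 lost ABCA1, ABCA6, ABCD3, ABCG1, ABCB9 and ABCC10, and the whole-interval rule lost ABCA1, ABCA3, ABCA6, ABCC2, ABCD2, ABCD3, ABCB9 and ABCC10. ABCA5 and ABCB4 were called under every alternative run. For the 8 called genes of the related lists, alternatives were added after seeing the data. FECH, GGT7 and EIF2AK4 were called under each other scaling and pseudocount and without the GC trend. Total counts and a pseudocount of 10 lost NR1H3 (0.56 and 0.54) and NR1I3 (0.53 and 0.58). A pseudocount of 10 lost PEX7 (-0.58). Removal of the GC trend lost NR1H3 (0.48), NR1I3 (0.47), GCN1L1 (0.48) and GCLM (-0.54). Values not called changed sign after removal of the GC trend for ABCA7 (-0.01) and ABCE1 (0.36), among others. The value of ABCA17P rests on a count of 0 and moved from -6.73 with a pseudocount of 0.1 to -1.04 with 10. No paired analysis was possible because each cell line has 1 library, and for the same reason no library could be left out. Low counts limit ABCC2, ABCD2 and ABCA17P, each with at most 30 reads in the 2 libraries together.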
